A study of Mus musculus with 6 samples.

Results

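The immediate early genes examined here were *Fos*, *Fosb*, *Jun*, *Junb*, *Egr1*, *Egr2*, *Ier2*, *Ier3*, *Dusp1* and *Arc*. They were taken as the rows of each deposited table that carry one of these 10 gene names, which gave 11 transcripts of 30352, and the values were summed to 10 genes of 20631. The samples were neuromesodermal progenitors (NMPs), the bipotent cells of the caudal embryo that give rise to spinal cord and somite mesoderm, made in culture from mouse embryonic stem cells (ESCs). All cells had first received bFGF and then bFGF with the WNT agonist CHIR99021, and in every group, the control included, both factors were withdrawn when the final 2 h treatment began in retinoid-free N2B27 medium. That treatment was the DMSO vehicle, 25 nM retinoic acid (RA) or 1 µM RA, with 2 samples per condition and 6 in all. The duplicates were separate culture dishes that the study's methods call technical replicates, so p-values measure the spread between dishes of 1 experiment. The labels give the strain as 129 R1, whereas the methods name C57BL/6 ESCs, and the ESCs were kept on feeder fibroblasts before differentiation.

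Immediate early genes are transcribed within minutes of a signal by factors that are already present in the cell, without new protein synthesis. Growth factors such as FGF reach them through the ERK kinase cascade, which acts on SRF with its ternary complex partners and on CREB at their promoters, and the transcripts and their proteins are short-lived. Many of the products are transcription factors (FOS, JUN and EGR proteins), others restrain the cascade (the MAP kinase phosphatase DUSP1), and ARC is known mainly as an activity-dependent protein of neuronal synapses.

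The total per sample lay between 31753556 and 42029348 estimated counts. Both textbook RA targets rose at both doses: *Rarb*, an RA receptor gene, went from a mean of 0.237 RPKM (reads scaled to transcript length and library size) in DMSO to 5.28 and 6.77 RPKM, and *Cyp26a1*, the RA-degrading enzyme, from 52.4 to 178 and 278 RPKM at 25 nM and 1 µM RA. Summed over 8 NMP markers the level was 526 to 539 RPKM in the DMSO samples, 586 to 603 at 25 nM and 584 to 602 at 1 µM. The highest of them, *T*, had means of 375, 375 and 370 RPKM and *Fgf8* was lower with RA (58.3, 50.7 and 49.0), while *Nkx1-2* (39.1, 79.5 and 77.7), *Cdx1* (6.36, 21.8 and 24.4) and *Sox2* (5.20, 15.4 and 16.3) were higher. The 2 committed neural markers *Sox1* and *Pax6* together stayed under 1 RPKM in every sample. Summed RPKM of 4 endoderm markers was lower with RA (36.0 to 36.9 in DMSO, 29.0 to 29.3 at 25 nM, 26.9 to 28.3 at 1 µM). Means of *Sox17* (6.76, 4.50 and 3.43) and *Foxa2* (14.4, 11.1 and 9.78) fell, while *Gata4* (5.87, 5.24 and 5.82) and *Gata6* (9.40, 8.27 and 8.56) moved less. The sum of 8 fibroblast markers, 5 of them with a mean under 1 RPKM, was higher with RA (7.11 to 7.39 in DMSO, 8.96 to 9.14 over the 4 RA samples). *Pdgfrb* alone accounts for that rise, with means of 1.15, 3.13 and 3.68 RPKM, and the sum of the other 7 was 5.94 to 6.27 in DMSO, 5.82 to 6.02 at 25 nM and 5.26 to 5.43 at 1 µM. Summed RPKM of 9 neuronal markers was 38.3 to 40.4 in DMSO, 36.5 to 38.5 at 25 nM and 35.1 to 37.2 at 1 µM, and that of 5 pluripotency markers overlapped between all groups (24.0 to 27.3). No marker was at 0 in all samples, and the part of these cell types in the results below was not tested. In bulk RNA, fewer cells of a type and less RNA per cell cannot be told apart.

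In the DMSO samples the 10 genes spanned a wide range of levels per length. *Ier2*, a short intronless gene for a nuclear protein, was highest at 28.7 ± 1.15 RPKM (SD, n = 2), above 88.6% of all genes in the files. *Junb* followed at 11.4 ± 0.340 RPKM, *Jun* at 7.51 ± 0.00105 and *Dusp1* at 5.79 ± 0.680. *Ier3* had 4.37 ± 0.653, *Arc* 3.40 ± 0.383 and *Fos* 1.98 ± 0.0564 RPKM. The zinc finger genes were lower, with *Egr1* at 0.965 ± 0.0919 and *Egr2* at 0.719 ± 0.0580 RPKM, and *Fosb* was nearly silent at 0.0513 ± 0.00712 RPKM. The DMSO duplicates of no neighbouring pair in this order overlapped, and *Ier3* and *Arc* were the 1 pair whose means differed by less than the sum of their SDs. *Arc* lay at a middling level, above 58.2% of all genes. In these cultures 5 of 9 neuronal markers had a mean under 1 RPKM. *Stmn2* (22.5 RPKM in DMSO), *Tubb3* (11.6), *Map2* (1.81) and *Snap25* (1.53) lay above it.

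Each gene but *Arc* has 1 transcript in the files, with coordinates on mm10. *Fos* (NM_010234) has 4 exons on the plus strand of chromosome 12 (85473901 to 85477270), and *Fosb* (NM_008036) 4 exons on the minus strand of chromosome 7 (19302696 to 19310045). *Jun* (NM_010591, chromosome 4, 95049036 to 95052222), *Junb* (NM_008416, chromosome 8, 84976909 to 84978748) and *Ier2* (NM_010499, chromosome 8, 84661331 to 84662852) are minus-strand genes of 1 exon. *Egr2* (NM_010118) has 2 exons on the plus strand of chromosome 10 (67537869 to 67542188), and *Egr1* is NM_007913. On chromosome 17 lie *Ier3* (NM_133662, plus strand, 35821713 to 35822911, 2 exons) and *Dusp1* (NM_013642, minus strand, 26505591 to 26508472, 4 exons).

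**Figure D1:**
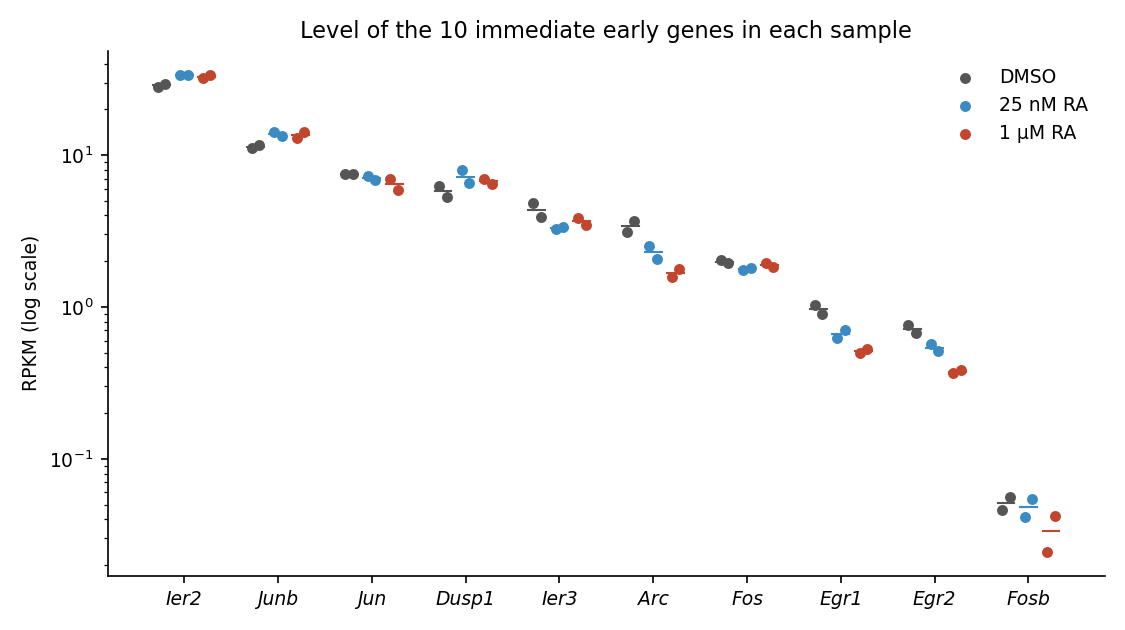
RPKM of the 10 immediate early genes in each sample (log axis), with 1 point per culture dish, a line at the mean and a colour for each of DMSO, 25 nM RA and 1 µM RA. *Ier2* lies highest, at 27.9 to 33.9 RPKM, and *Fosb* lowest, at 0.0244 to 0.0563 RPKM. *Arc*, *Egr1*, *Egr2*, *Jun* and *Ier3* show every RA sample below both DMSO samples, and *Ier2*, *Junb* and *Dusp1* show every RA sample above both.

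Of the 10 genes, 9 had enough counts to be tested, and the genes moved in both directions. At 25 nM RA 6 were called against DMSO, *Ier2*, *Junb* and *Dusp1* higher and *Arc*, *Egr1* and *Ier3* lower, where 8.05% of the 15143 genes tested were called, 4.5% higher and 3.55% lower (edgeR's likelihood ratio test, Benjamini-Hochberg adjusted p under 0.1). At 1 µM RA 6 were again called, *Ier2* and *Junb* higher and *Arc*, *Egr1*, *Egr2* and *Jun* lower, where 19.7% of all genes were called, 8.54% higher and 11.2% lower. The median absolute log2 fold change of the 9 tested genes was 0.30 at 25 nM and 0.24 at 1 µM, beside 0.07 and 0.11 over all genes tested. In TMM-normalised counts the RA and DMSO duplicates did not overlap for 9 of the 10 genes at 25 nM. At 1 µM this held for 10 of 10. Over the 15143 genes tested, which leave out *Fosb*, the shares were 44.8% and 54.3%. At 1 µM *Fosb* was among the 10 with 4 and 7 counts beside 9 and 9 in DMSO. *Fos* was separated there only narrowly, at 98.35% of the DMSO mean in 1 µM replicate 1 beside 98.37% in DMSO replicate 2. Both comparisons use the same DMSO samples, so they are not independent of each other. DESeq2 called 3 at 25 nM (*Arc*, *Ier2* and *Junb*, with 3.74% of all genes called) and 5 at 1 µM (10.5%), and without DMSO replicate 1 or 25 nM replicate 1 the count at 25 nM was 3, with 5.53% of all genes called in each of these fits. With transcripts fitted singly, *Ier2* and *Junb* alone kept a call at 25 nM.

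**Figure D2:**
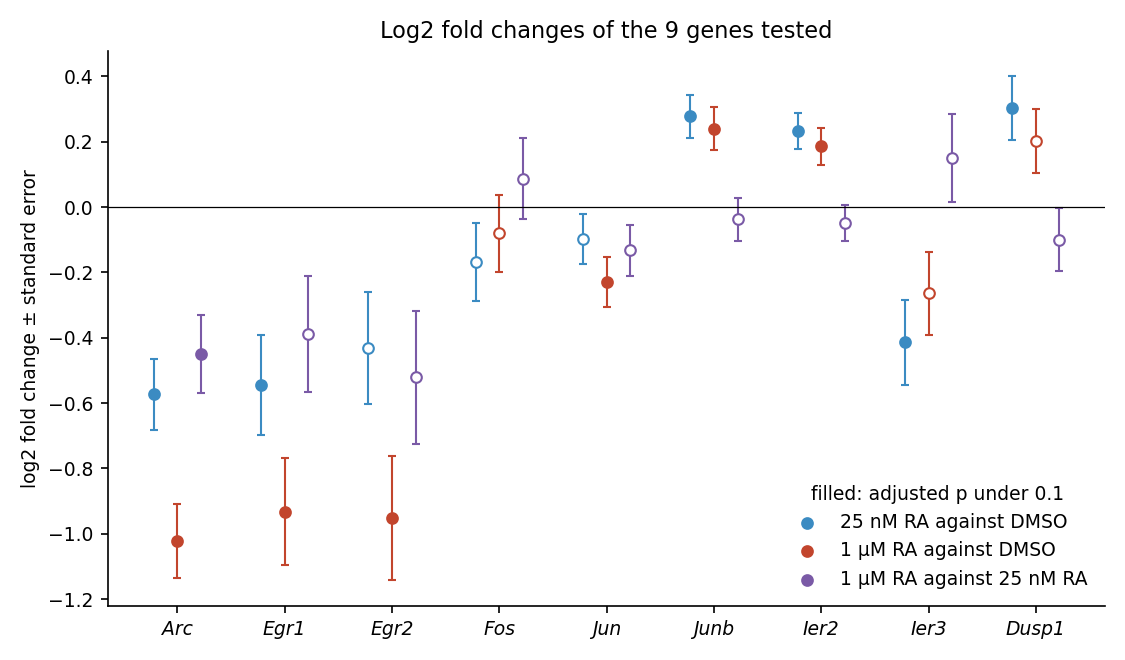
Log2 fold change of the 9 tested genes in the 3 comparisons (each RA dose against DMSO, and 1 µM against 25 nM RA), with bars of 1 standard error from edgeR's fit and points filled where the adjusted p was under 0.1. Against DMSO, *Arc*, *Egr1* and *Egr2* reach -1.02 to -0.93 at 1 µM, while *Ier2* and *Junb* lie above 0 at both doses.

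*Arc* had the smallest adjusted p of the 10 genes at both doses. Its RPKM was 3.13 and 3.67 in DMSO, 2.52 and 2.08 at the lower dose, and 1.58 and 1.77 at the higher, from 493 and 475, 296 and 308, and 210 and 238 estimated counts. The 3 groups did not overlap, and each step in dose was a step down. Against DMSO *Arc* fell by 32.8% at 25 nM (log2 fold change -0.57, SE 0.11, edgeR's likelihood ratio test, adjusted p = 5.78e-06) and by 50.8% at 1 µM (-1.02, SE 0.11, adjusted p = 9.24e-18). At 1 µM only 74 of the 15143 genes tested had a lower log2 fold change. Both calls held with every sample left out in turn and with each other tool at the gene level. In the mm10 build *Arc* lies on the minus strand of chromosome 15 (74669081 to 74672570) in 3 exons.

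**Figure D3:**
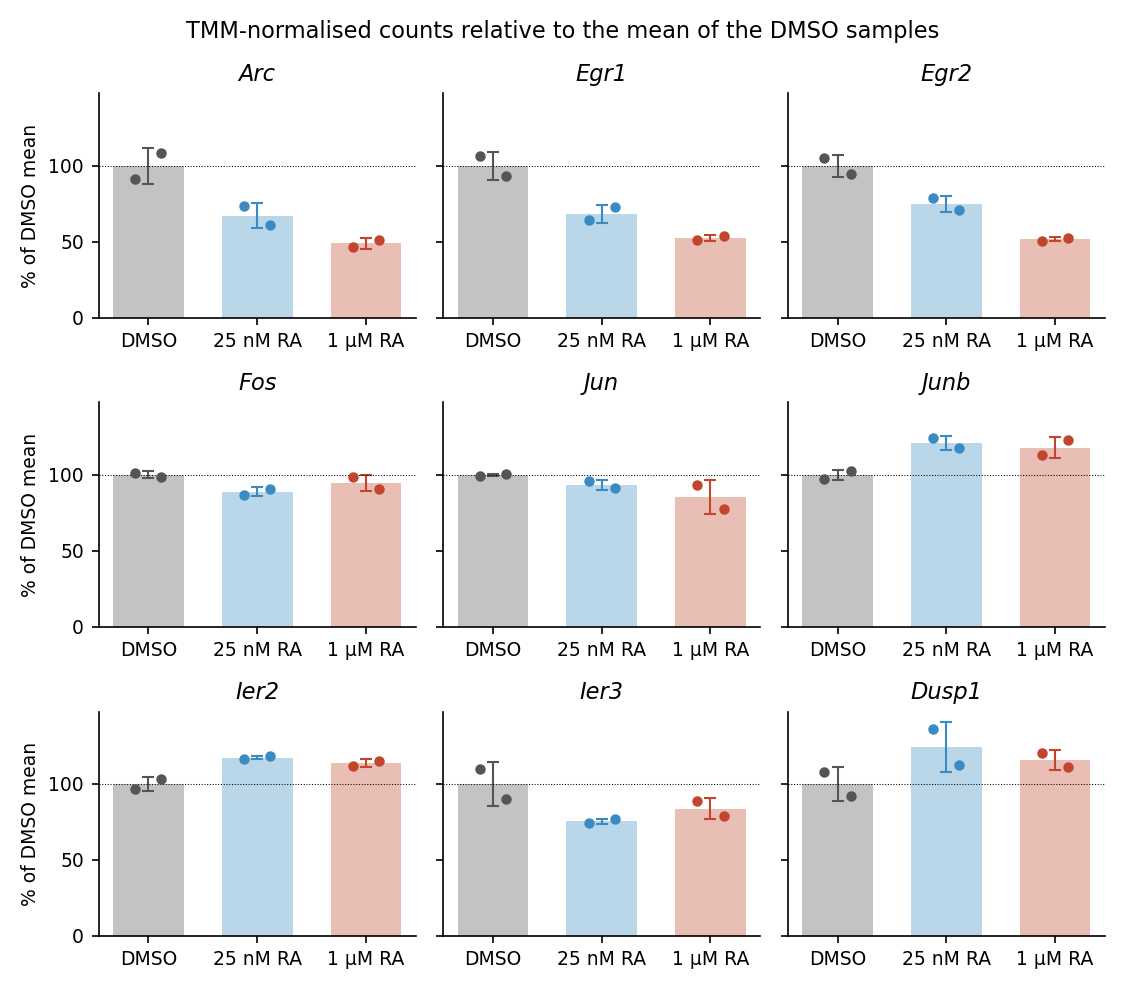
TMM-normalised counts of the 9 tested genes as a percentage of each gene's DMSO mean, with 1 point per culture dish, a bar at the group mean and its SD (n = 2). At 1 µM RA *Arc* stands at 46.5% and 51.5%, *Egr1* at 51.3% and 53.9% and *Egr2* at 50.9% and 52.8%.

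The files list *Arc* as a pair of transcripts, NM_018790 (3059 bases) and NM_001276684 (3056 bases), which have the same coding sequence. In GENCODE's models they differ by 3 bases at the start of exon 2, within the 3′ UTR, and by 2 bases at the start of exon 1. The share of *Arc* counts given to NM_001276684 was 34.0% and 50.7% in DMSO, 34.1% and 45.2% at 25 nM and 42.3% and 43.1% at 1 µM, so the split differed more between the DMSO duplicates than between the condition means. At 1 µM both transcripts fell, NM_018790 by 1.02 and NM_001276684 by 1.04 on the log2 scale (edgeR's likelihood ratio test over transcripts, adjusted p = 0.00245 and 0.0430), where 8.3% of all transcripts were called. By the quasi-likelihood test of edgeR NM_018790 kept its call (adjusted p = 0.0853) and NM_001276684 lost it (0.169). At 25 nM neither was called, at -0.48 (SE 0.25, adjusted p = 0.550) and -0.70 (SE 0.34, adjusted p = 0.456), where 3.69% of all transcripts were called. The common biological coefficient of variation was 0.131 over transcripts and 0.0351 over summed genes.

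**Figure D4:**
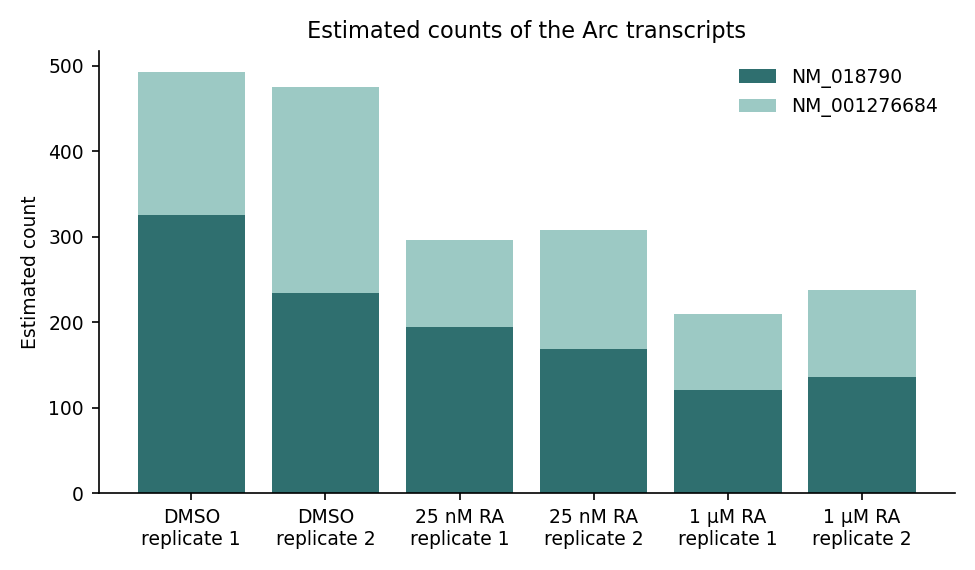
Estimated counts of both *Arc* transcripts in each sample. The split between them differs between the DMSO duplicates (34.0% and 50.7% for NM_001276684) while the sum falls with RA.

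*Egr1* and *Egr2* encode zinc finger transcription factors, and *Egr2* is also the hindbrain segmentation gene *Krox20*. *Egr1* had 1.03 and 0.900 RPKM in DMSO, 0.626 and 0.700 at 25 nM and 0.495 and 0.526 at 1 µM RA. *Egr2* had 0.760 and 0.678, 0.570 and 0.509, and 0.365 and 0.384 RPKM. For both genes the 3 groups stood apart in the order of dose. *Egr1* fell by 31.4% at 25 nM (log2 fold change -0.54, SE 0.15, edgeR adjusted p = 0.00826) and by 47.6% at 1 µM (-0.93, SE 0.16, adjusted p = 2.19e-07). *Egr2* fell by 48.3% at 1 µM (-0.95, SE 0.19, edgeR adjusted p = 6.74e-06), and its 25 nM value of -0.43 (SE 0.17, adjusted p = 0.133) did not pass. The 1 µM calls of both genes held with every sample left out in turn and with DESeq2. The 25 nM call of *Egr1* was lost without DMSO replicate 1 (adjusted p = 0.246), without 25 nM replicate 1 (0.174) and with DESeq2 (0.408). These are low counts, 47 to 163 a sample, and counting error alone was 9.28 to 14.6% for *Egr2*.

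Upstream sequence is shown because SRF and CREB are known to act on immediate early genes through promoter elements that can be searched for there. It was taken from RefSeq (GRCm38.p6) and searched for 7 of the 10 genes (*Fos*, *Fosb*, *Jun*, *Junb*, *Egr2*, *Ier3* and *Dusp1*). *Arc*, *Egr1* and *Ier2* were not searched. The window searched ran from 250 bases before to 50 bases after the start site, on both strands. The 3 genes printed are *Egr2*, which fell at 1 µM, *Fos*, which was not called, and *Dusp1*, which was higher at 25 nM. The 250 bases before the start are chr10:67537619-67537868 (plus strand) for *Egr2*, chr12:85473640-85473889 (plus) for *Fos* and chr17:26508473-26508722 (minus) for *Dusp1*, and capitals mark a CArG box, a full CRE or TATAAA.
Egr2: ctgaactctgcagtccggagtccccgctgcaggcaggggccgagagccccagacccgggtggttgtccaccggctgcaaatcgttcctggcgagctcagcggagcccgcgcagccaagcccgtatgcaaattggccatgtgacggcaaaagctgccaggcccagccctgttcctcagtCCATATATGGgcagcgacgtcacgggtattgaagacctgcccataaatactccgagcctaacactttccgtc
Fos: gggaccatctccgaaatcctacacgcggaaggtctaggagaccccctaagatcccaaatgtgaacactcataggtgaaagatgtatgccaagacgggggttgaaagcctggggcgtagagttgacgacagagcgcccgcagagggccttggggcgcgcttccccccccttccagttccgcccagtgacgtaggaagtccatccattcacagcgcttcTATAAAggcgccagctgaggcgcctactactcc
Dusp1: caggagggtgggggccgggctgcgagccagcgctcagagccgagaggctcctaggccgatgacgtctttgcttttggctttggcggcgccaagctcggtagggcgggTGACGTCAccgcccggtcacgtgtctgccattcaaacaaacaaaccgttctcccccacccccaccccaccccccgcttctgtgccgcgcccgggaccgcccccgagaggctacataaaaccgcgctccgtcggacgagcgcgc
*Egr2* was the 1 gene of 7 with a CArG box, the SRF element, inside the window, at 72 to 63 bases before its start. Among 27025 promoters of the same length 1.57% hold one. Elements farther upstream, or with bases that depart from the searched pattern, would be missed. A gene without a match, such as *Fos* for the CArG box, can therefore still have the element. *Dusp1* was the 1 gene with a full CRE (TGACGTCA), at 143 to 136 bases before its start, against 1.88% of promoters. The shorter CRE core TGACG, which the full CRE contains, was found in 5 of 7 (21.0% of promoters), and TATAAA in 2 of 7, *Fos* and *Junb* (14.2%). In *Fos* the TATAAA lay 33 to 28 bases before the start, whereas in *Junb* it began at the start site itself. The AP-1 site TGANTCA (7.93% of promoters), the EGR site GCGTGGGCG (0.625%) and the DR2 and DR5 forms of the RA response element (0.263% and 0.0962%) matched in none of the 7 windows.

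The FOS and JUN proteins pair to form the AP-1 transcription factor, and their genes did not move together. *Junb* had 11.1 and 11.6 RPKM in DMSO, 14.3 and 13.4 at 25 nM and 12.9 and 14.1 at 1 µM RA, with every RA sample above both DMSO samples. *Junb* was 21.2% higher at 25 nM (log2 fold change 0.28, SE 0.067, edgeR adjusted p = 0.000963) and 18.2% higher at 1 µM (0.24, SE 0.067, adjusted p = 0.00364). Its 25 nM call held in every alternative, and its 1 µM call was lost without DMSO replicate 1 (adjusted p = 0.129), without 1 µM replicate 2 (0.103) and with transcripts fitted singly (0.110). *Jun* had 7.51 and 7.51 RPKM in DMSO, 7.28 and 6.84 at 25 nM and 7.01 and 5.89 at 1 µM, where 1 µM replicate 2 was the low sample. It fell by 14.6% at 1 µM (-0.23, SE 0.077, edgeR adjusted p = 0.0243), a call that was lost without that replicate (adjusted p = 0.432), without DMSO replicate 1 (0.142) or 2 (0.180) and with DESeq2 (0.134). At 25 nM its value was -0.10 (edgeR adjusted p = 0.652). *Jun* shares 689 bases with the antisense gene *Junos*. The libraries were made with a stranded kit, but the sources used here do not say whether the counting used strand. Whether reads of *Junos* were counted as *Jun* is therefore not known.

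*Fos* was not called at either dose. It had 2.02 and 1.94 RPKM in DMSO, 1.74 and 1.80 at 25 nM and 1.95 and 1.83 at 1 µM RA, so that the RPKM of DMSO and 1 µM overlapped. Its log2 fold change was -0.17 at 25 nM (95% interval -0.40 to 0.07, edgeR adjusted p = 0.592) and -0.08 at 1 µM (-0.31 to 0.15, adjusted p = 0.723). Changes the size of those of *Arc* and *Egr1* at 1 µM lie outside the interval for *Fos* at that dose. *Fosb* had 9 and 9 counts in DMSO, 6 and 10 at 25 nM and 4 and 7 at 1 µM, and it failed the count filter and was not tested. With a counting error of 31.6 to 50% only a large change could have been seen at this depth.

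*Ier2*, *Ier3* and *Dusp1* encode immediate early proteins that are not AP-1 or EGR factors. *Ier2* had 27.9 and 29.5 RPKM in DMSO, 33.8 and 33.9 at 25 nM and 32.1 and 33.5 at 1 µM RA, with every RA sample above both DMSO samples. *Ier2* was 17.6% higher at 25 nM (log2 fold change 0.23, SE 0.055, edgeR adjusted p = 0.000753) and 13.7% higher at 1 µM (0.19, SE 0.055, adjusted p = 0.00825), and both calls were lost without DMSO replicate 1 (adjusted p = 0.122 and 0.233). *Ier3*, a regulator of cell survival, had 4.83 and 3.90 RPKM in DMSO, 3.27 and 3.34 at 25 nM and 3.87 and 3.49 at 1 µM. It fell by 24.9% at 25 nM (-0.41, SE 0.13, edgeR adjusted p = 0.0251), and at 1 µM the value was -0.26 (SE 0.13, adjusted p = 0.155). *Dusp1*, which dephosphorylates MAP kinases, had 6.27 and 5.31 RPKM in DMSO, 7.94 and 6.51 at 25 nM and 6.95 and 6.49 at 1 µM. It was 23.5% higher at 25 nM (0.30, SE 0.097, edgeR adjusted p = 0.0319), with a value of 0.20 at 1 µM (SE 0.098, adjusted p = 0.158). For both genes the DMSO duplicates were far apart, at ratios of 1.23 and 1.17. The 25 nM call of *Ier3* was lost without DMSO replicate 1 (adjusted p = 0.570) or either 25 nM replicate (0.175 and 0.148), that of *Dusp1* without DMSO replicate 2 (0.533) or 25 nM replicate 1 (0.575), and both with DESeq2 (0.449 and 0.253). At 1 µM, where neither was called, *Dusp1* gained a call without DMSO replicate 1 (0.33, edgeR adjusted p = 0.0637) and *Ier3* without DMSO replicate 2 (-0.39, adjusted p = 0.0454).

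The 2 RA doses were also compared directly, at the same time of 2 h. *Arc* was the 1 gene of the 10 called, lower at 1 µM than at 25 nM (log2 difference -0.45, 95% interval -0.68 to -0.22, edgeR adjusted p = 0.0119), where 3.41% of all genes were called, 0.792% higher and 2.62% lower. That call was lost without 25 nM replicate 1 (adjusted p = 0.412), without 1 µM replicate 1 (0.182) and with DESeq2 (0.171), which called 1.04% of all genes, and neither *Arc* transcript was called where 1.8% of transcripts were. *Egr1* differed by -0.39 (95% interval -0.74 to -0.04, edgeR adjusted p = 0.306) and *Egr2* by -0.52 (-0.92 to -0.12, adjusted p = 0.178), neither of them called. For the genes that were higher with RA the intervals were narrow around 0, at -0.17 to 0.09 for *Junb* and -0.16 to 0.06 for *Ier2*. *Jun* (-0.28 to 0.02), *Dusp1* (-0.29 to 0.09), *Ier3* (-0.11 to 0.41) and *Fos* (-0.15 to 0.33) were not called either. Without 1 µM replicate 1 *Jun* was called in place of *Arc*, at -0.27 (edgeR adjusted p = 0.0388). The duplicates of the doses did not overlap for 6 of the 10 genes, beside 43.6% of the genes tested.

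A list of 40 other immediate early genes, all of them tested, also moved both ways. This list, like those that follow, was chosen with earlier results of these data known, which limits what its shares show. At 25 nM RA 8 rose and 9 fell, 42.5% of the list beside 8.05% of all genes, and at 1 µM 11 rose and 15 fell, 65.0% beside 19.7%. The median log2 fold change of the list was -0.06 at 25 nM and -0.09 at 1 µM, against 0.00 over all genes. *Bhlhe40*, a circadian and hypoxia-linked repressor, went from 4.42 and 3.88 RPKM in DMSO to 9.01 and 7.92 at 25 nM and 9.73 and 9.56 at 1 µM, a rise of 1.02 and 1.21 on the log2 scale (edgeR adjusted p = 7.99e-38 and 8.35e-55). *Atf3*, a stress-linked bZIP factor, rose by 0.61 and 0.93 (edgeR adjusted p = 2.16e-10 and 3.32e-26). *Ier5l* (0.81 and 1.00), the kinase gene *Plk3* (0.66 and 0.61) and *Jund* (0.46 and 0.42), the third JUN gene, also rose at both doses. *Zfp36l2*, whose product speeds the decay of AU-rich mRNAs, fell by 0.56 and 0.81 on the log2 scale (edgeR adjusted p = 4.19e-17 and 5.19e-35). *Ier5* (-0.50 and -0.73) and *Klf6* (-0.27 and -0.37) fell at both doses as well. The calls of these 8 genes against DMSO held with every sample left out in turn and with DESeq2. Between the doses 2 of the 40 differed upward (*Atf3* and *Klf10*) and 3 downward (*Ier5*, *Zfp36l2* and *Per1*), 12.5% beside 3.41% of all genes, and each of these 5 calls was lost when some 1 sample was left out.

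**Figure D5:**
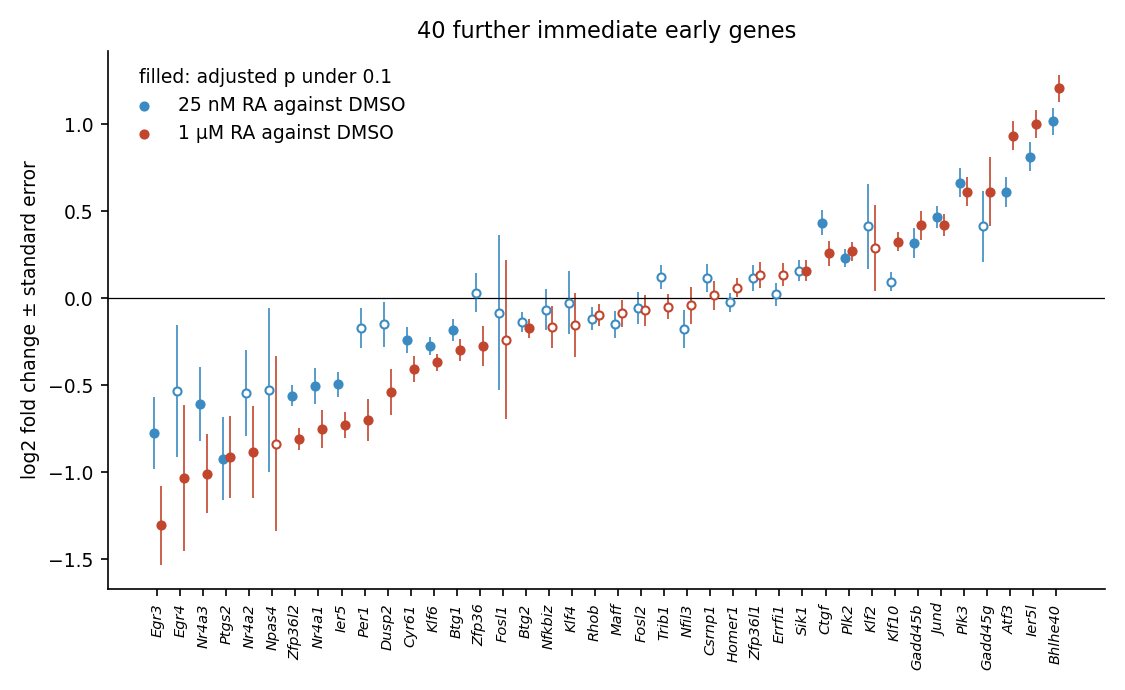
Log2 fold change against DMSO at 25 nM and 1 µM RA of 40 other immediate early genes, ordered by their value at 1 µM, with bars of 1 standard error and points filled where the adjusted p was under 0.1. *Bhlhe40* reaches 1.21 and *Egr3* -1.30 at 1 µM, and the list spreads to both sides of 0.

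The paralogs of *Egr1*, *Egr2* and *Fos*, the NR4A orphan receptor genes and *Npas4* were singled out after their values were seen. *Egr3* had 0.456 and 0.556 RPKM in DMSO, 0.269 and 0.315 at 25 nM and 0.239 and 0.172 at 1 µM, and fell by 0.78 and 1.30 on the log2 scale (edgeR adjusted p = 0.00349 and 7.91e-08). *Egr4*, at 9 to 22 counts a sample, was at -0.53 (edgeR adjusted p = 0.582) and fell by 1.04 at 1 µM (adjusted p = 0.0630), a call that no fit without a DMSO or 1 µM sample kept. *Nr4a1* fell by 0.50 and 0.75 (edgeR adjusted p = 4.34e-05 and 6.78e-11), and *Nr4a3* by 0.61 and 1.01 (0.0555 and 0.000101). *Nr4a2* was at -0.55 at 25 nM (edgeR adjusted p = 0.221) and fell by 0.89 at 1 µM (0.00642). The call of *Egr3* at 25 nM was lost without DMSO replicate 2 (edgeR adjusted p = 0.152) or 25 nM replicate 1 (0.118), that of *Nr4a3* at 25 nM without either DMSO replicate (0.377 and 0.161) or 25 nM replicate 1 (0.553), and that of *Nr4a2* at 1 µM without 1 µM replicate 2 (0.104). With DESeq2 the 25 nM calls of *Egr3* (adjusted p = 0.281) and *Nr4a3* (0.700) and the 1 µM call of *Nr4a2* (0.223) were lost. The quasi-likelihood test of edgeR did not keep the calls of *Nr4a3* at 25 nM (adjusted p = 0.128) and *Egr4* at 1 µM. For *Egr4* at 1 µM DESeq2 gave no adjusted p. Both tools kept the calls of *Nr4a1* at both doses and of *Egr3* and *Nr4a3* at 1 µM. *Fosl1*, *Fosl2* and the neuronal factor *Npas4* were not called at either dose.

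Of 23 kinases and factors that act upstream of immediate early genes, 2 rose and 2 fell at 25 nM RA (17.4% of the list beside 8.05% of all genes), and 3 rose and 6 fell at 1 µM (39.1% beside 19.7%). *Rps6ka4*, which encodes the kinase MSK2, rose from 1.31 ± 0.0707 RPKM (SD, n = 2) in DMSO to 2.16 ± 0.0519 at 25 nM, with 2.06 and 1.94 at 1 µM (log2 fold change 0.73 and 0.61, edgeR adjusted p = 7.80e-10 and 5.39e-07). The gene for SRF itself had 29.9 and 28.7 RPKM in DMSO and 23.9 and 26.4 at 1 µM, and *Srf* fell by 0.23 there (edgeR adjusted p = 0.00188), with a value of -0.11 at 25 nM (adjusted p = 0.402). Its coactivators *Mkl1* and *Mkl2* fell by 0.55 and 0.28 at 1 µM (edgeR adjusted p = 1.87e-05 and 0.000691). The kinase gene *Rps6ka3* rose by 0.33 and 0.37, calls that were lost without DMSO replicate 1 (edgeR adjusted p = 0.473 and 0.156), and *Elk3*, a ternary complex factor, fell by 0.33 and 0.37, the first of which was lost without DMSO replicate 1 (0.274) or either 25 nM replicate (0.123 and 0.248). *Rps6ka5* (-0.31 and -0.21) and, at 1 µM, *Mapk8* (0.16) were also called. The 25 nM call of *Rps6ka5* was lost without 25 nM replicate 1 (edgeR adjusted p = 0.204), and the 1 µM calls of *Rps6ka5* (0.243 and 0.171) and *Mapk8* (0.103 and 0.128) without DMSO replicate 1 and without DMSO replicate 2. With DESeq2 both calls were lost for *Rps6ka3* (adjusted p = 0.501 and 0.138), *Elk3* (0.497 and 0.129) and *Rps6ka5* (0.116 and 0.288). DESeq2 kept the calls of *Rps6ka4*, *Srf*, *Mkl1*, *Mkl2* and *Mapk8* against DMSO. Transcript levels of kinases do not measure their activity. None of 11 heat shock and integrated stress genes was called in any of the 3 comparisons by edgeR's likelihood ratio or quasi-likelihood test or by DESeq2, and 1 passed an unadjusted p of 0.05 in the likelihood ratio test at each dose (*Ddit3* at 25 nM, *Hspa8* at 1 µM).

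The genes whose course over the 6 samples was most like that of *Arc* were sought among 11095 genes with a mean over 1 RPKM, by the root mean square difference of log2 change from the DMSO mean. The nearest were *Msgn1*, a presomitic mesoderm factor (0.0996), *Rgmb*, a BMP co-receptor (0.12), *Foxj2* (0.141), *Ptger4*, a prostaglandin receptor gene (0.142), and *Adamts15*, a secreted protease gene (0.145). Among the 9 tested genes of the 10 examined, *Egr2* (0.162) and *Egr1* (0.188) were nearest to *Arc*, and *Junb* (0.878) and *Dusp1* (0.887) farthest. The other immediate early genes listed above were not placed in this order. *Msgn1* fell by 0.50 at 25 nM and by 0.90 at 1 µM on the log2 scale (edgeR adjusted p = 3.54e-08 and 1.57e-24), beside 0.57 and 1.02 for *Arc*. With 6 samples in 3 conditions, likeness here is a description of shared direction and size.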

How the data were processed

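RNA-seq of ribodepleted total RNA was analysed for 6 NMP samples, 2 per condition. Per the submitters' processing notes and the methods, the authors checked reads with FastQC 0.11, aligned them to mm10 with TopHat2 2.0.13 and Bowtie2 2.2.5.0, and quantified transcripts in Partek 6.6 by expectation maximization, which splits reads between similar transcripts. The deposited tables give estimated counts per transcript and RPKM that the authors scaled to transcript length and library size. Both were summed per gene here. Rounded counts were filtered (filterByExpr, leaving 15143 genes), TMM-normalised and tested across all 6 samples with edgeR 4.0.16 (glmFit, likelihood ratio test, R 4.3.3), with Benjamini-Hochberg adjustment over all genes tested and calls at an adjusted p under 0.1. Total counts ranged from 31753556 to 42029348 per sample, so precision was limited by counts for *Fosb*, *Egr1* and *Egr2*. Levels are from RPKM and tests from counts. The script was tested on simulated data. All 10 genes are reported, and from each further list the genes called against DMSO, at most 8 in order of adjusted p. Paralogs of the EGR and FOS genes, the NR4A genes and *Npas4* were added after their values were seen, as were the genes called between doses. The genes and lists were chosen with earlier results of these data known. Alternatives were the quasi-likelihood test, DESeq2 1.42.0, other scaling and filters, single transcripts, a replicate block and leaving out each sample.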

Additional observations from a re-analysis of the deposited data

How the results depend on the processing

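With DESeq2 3 of the immediate early genes were called at 25 nM and 0 between doses, against 6 and 1, and 11 and 1 of the 40 other immediate early genes, against 17 and 5. With single transcripts the counts were 2 and 0, and 11 and 1. Leaving out 1 sample at a time gave 3 to 6 calls at 25 nM, 4 to 6 at 1 µM and 0 to 1 between doses for the 10 genes, and 13 to 18, 21 to 25 and 1 to 5 for the other list. Between doses 2 values changed sign when 1 sample was left out: *Dusp1*, over a range of -0.23 to 0.035 (above 0 without 25 nM replicate 1), and *Junb*, over -0.098 to 0.018 (above 0 without 1 µM replicate 1). The causes were not tested. Over all genes, DESeq2 called 567, 1594 and 158 at 25 nM, at 1 µM and between doses, against 1219, 2983 and 516, and the quasi-likelihood test called 336 between doses. Leaving out 1 sample took these counts to between 799 and 1345, 1922 and 2838, and 205 and 577, with fewer samples in the fit. Replicate numbers did not pair the samples (correlations of deviations -0.0409, 0.0484 and -0.0615), and a replicate block gave 6, 7 and 1 calls, adding *Dusp1* at 1 µM (adjusted p = 0.0621, edgeR). Of the log2 fold changes under the alternatives, 397 kept direction and side of the threshold, 30 lost and 4 gained a call. Counts limit *Fosb*, *Egr1* and *Egr2* most.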
